A study of Mus musculus with 20 samples.

Results

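The genes described here run DNA replication and mitosis, and were followed in mouse abdominal skin during imiquimod treatment. They were chosen by name as 45 genes, of which 43 were measured among 22180 genes. Ccnb1 had no probe set with a single gene symbol, and the only probe set of Ccne2 is shared with Ints8, so neither has a value.

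Skin of 20 mice was hybridised to Affymetrix arrays, 1 array per mouse and 5 mice per group. KO imiquimod and KO mock mice carried floxed Zfp36 alleles (zfp36 fl/fl) and K14 cre, and control imiquimod and control mock mice were littermates labelled zfp36 fl/fl, with no Cre named, so the floxed alleles were present in every group. Zfp36 encodes tristetraprolin, an RNA-binding protein that promotes decay of inflammatory messenger RNAs. Imiquimod is a Toll-like receptor agonist that causes psoriasis-like inflammation when put on mouse skin. It was applied for 5 consecutive days, and skin was taken 4 h after the last application. The K14 promoter is active in basal keratinocytes, so dermal and immune cells of KO skin keep the gene, and bulk skin cannot tell more dividing cells apart from more RNA per cell. Age and sex were not given in the labels used here.

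Zfp36 ranged over 5.47 to 7.41 in KO imiquimod skin, against 7.68 to 8.40 in control imiquimod skin. In KO mock skin it ranged over 3.47 to 7.12, against 7.22 to 7.74 in control mock skin. Neither pair of groups overlapped, although where its probes lie relative to the deleted part was not examined. Defining markers of skin were present: the basal keratin gene Krt14 averaged 12.1 ± 0.138 in KO imiquimod skin, 10.9 ± 0.198 in KO mock skin, 11.6 ± 0.192 in control imiquimod skin and 10.7 ± 0.259 in control mock skin (log2, SD, n = 5 each). Array medians ran from 4.94 to 5.04. The correlation of arrays over all probe sets was 0.953 to 0.988 within groups and nearly the same between groups, at 0.946 to 0.987. Hair follicle genes varied widely within every group.

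A cell that divides first loads the MCM helicase on its replication origins and makes deoxynucleotides, then copies its DNA, and finally separates its chromosomes on the spindle. The genes of these steps are switched on in order: E2F factors bind the promoters of replication genes, and a later program bound through the cell cycle genes homology region (CHR) and CCAAT boxes serves the mitotic genes. In skin, divisions take place in the basal layer of the epidermis and in the matrix of growing hair follicles, and the basal layer divides faster in psoriasis-like inflammation.

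Promoters are shown because these motifs are the known entry points of the replication and mitotic programs. RefSeq promoter windows of build GRCm38.p6, from 250 bases before to 50 bases after the start of the gene, were found for 33 of the 43 members, and 10 had no entry. The search covered 3 motifs on both strands: E2F (TTTGGCGC, TTTCGCGC, TTTCCCGC or TTTGCCGC), CHR (TTTGAA) and the CCAAT box (CCAAT), none of which contains another. An E2F word was present for 7 of 33 members (21.2%) and 704 of 27025 genes of the promoter table (2.60%). Replication licensing and fork genes held it in 6 of 9 promoters (66.7%), and genes of the mitotic cyclin, spindle and mitotic chromatin roles in 1 of 17 (5.88%), that of Cdk1. CHR words were present for 15 of 33 members (45.5%) and 20.2% of all genes. They were found in 13 of 17 promoters of these mitotic roles (76.5%) and in 1 of 9 of the replication genes (11.1%), that of Mcm2. CCAAT boxes were present for 25 of 33 members (75.8%) and 41.1% of all genes. On the strand of the gene alone, E2F words were found for 6, CHR words for 12 and CCAAT boxes for 16 of the 33 members. A match is a description of the letters in this window and does not show a bound site.

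**Figure D1:**
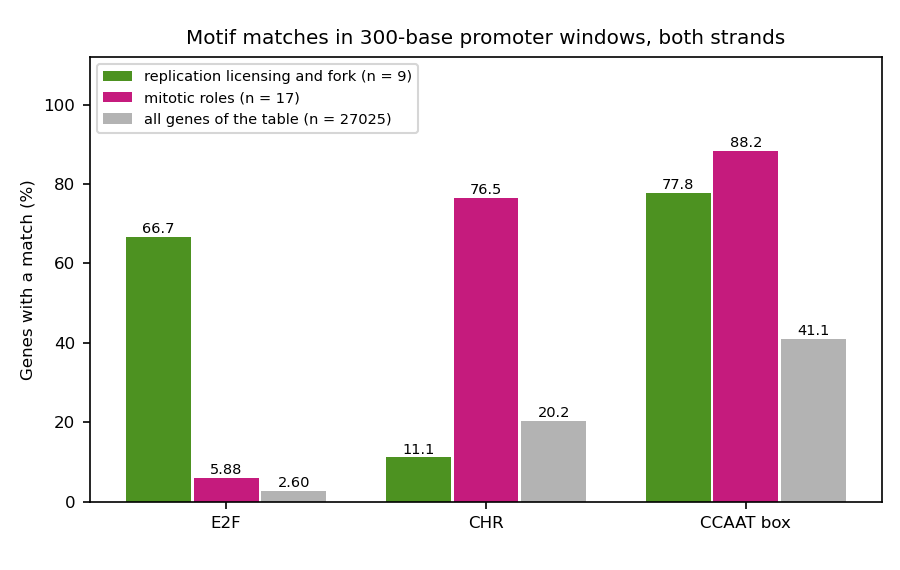
Percent of promoters with at least 1 match on either strand (vertical axis, 0 to 100) for E2F words, CHR words and CCAAT boxes, in replication licensing and fork genes (9 promoters), genes of the mitotic cyclin, spindle and mitotic chromatin roles (17 promoters) and all genes of the promoter table (27025 promoters). E2F words stand highest in the replication genes at 66.7% and CHR words in the mitotic genes at 76.5%.

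The stretches printed here cover the 200 bases before the start of 2 members each of the replication, mitotic cyclin and spindle roles, written 5′ to 3′ on the strand of the gene. Capitals mark motif matches, with a CCAAT box on the opposite strand read as ATTGG.
Cdt1, chr8:122567815-122568014, plus strand: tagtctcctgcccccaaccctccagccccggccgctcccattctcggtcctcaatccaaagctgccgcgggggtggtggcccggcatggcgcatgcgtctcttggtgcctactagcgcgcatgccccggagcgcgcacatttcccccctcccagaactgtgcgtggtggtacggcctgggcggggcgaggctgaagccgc
Mcm3, chr1:20820313-20820512, minus strand: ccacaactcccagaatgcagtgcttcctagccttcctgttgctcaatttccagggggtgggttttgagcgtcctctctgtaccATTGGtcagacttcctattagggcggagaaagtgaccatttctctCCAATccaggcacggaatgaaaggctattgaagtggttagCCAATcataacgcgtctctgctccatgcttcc
Cdc20, chr4:118437344-118437543, minus strand: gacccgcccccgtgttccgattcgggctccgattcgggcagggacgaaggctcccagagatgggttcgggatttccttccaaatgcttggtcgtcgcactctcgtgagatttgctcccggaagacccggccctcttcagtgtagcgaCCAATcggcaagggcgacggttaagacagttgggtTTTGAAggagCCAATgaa
Cdk1, chr10:69352913-69353112, minus strand: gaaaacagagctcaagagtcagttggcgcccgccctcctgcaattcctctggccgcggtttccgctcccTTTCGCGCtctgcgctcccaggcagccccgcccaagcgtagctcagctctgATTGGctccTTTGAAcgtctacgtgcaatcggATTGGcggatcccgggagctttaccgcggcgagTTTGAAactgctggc
Aurka, chr2:172370571-172370770, minus strand: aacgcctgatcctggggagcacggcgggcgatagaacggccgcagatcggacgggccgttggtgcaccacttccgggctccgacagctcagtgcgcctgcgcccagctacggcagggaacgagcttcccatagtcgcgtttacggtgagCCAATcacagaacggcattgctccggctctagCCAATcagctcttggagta
Hmmr, chr11:40733438-40733637, minus strand: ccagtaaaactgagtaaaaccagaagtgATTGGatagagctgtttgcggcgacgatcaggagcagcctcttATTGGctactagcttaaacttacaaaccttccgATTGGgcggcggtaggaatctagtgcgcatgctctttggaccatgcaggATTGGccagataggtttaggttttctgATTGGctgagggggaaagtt
The upstream stretch of Cdt1 held no match, and that of Mcm3 held CCAAT boxes only. Both genes have their E2F words just after the start, in capitals in these short stretches.
Mcm3, bases 18 to 47 after the start, chr1:20820266-20820295, minus strand: tgGCGGGAAAacttgggaagtTTTGGCGCc
Cdt1, bases 24 to 48 after the start, chr8:122568038-122568062, plus strand: aactaccttTTTGGCGCcatggcgc
Positions count from the start, with negative ones before it. Cdk1 held an E2F word at -131 to -124 and CHR words at -71 to -66 and at -15 to -10. Cdc20 held a CHR word at -18 to -13, beside CCAAT boxes. The CHR words of Aurka and Hmmr lie after the start, at bases 33 to 38 and 9 to 14, and are not printed.

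Imiquimod raised replication and mitosis genes together in KO skin. Of the 43 members, 33 passed the test as higher and 0 as lower, where 11.1% of all genes passed as higher and 9.71% as lower. The median difference between KO imiquimod and KO mock skin was 0.92 on the log2 scale, against -0.002 over all genes, and the members ran from 0.17 for Ccnd1 to 1.47 for E2f8. Every one of the 43 differences was positive. For 12 members each KO imiquimod array lay above each KO mock array, which held for 7.16% of all genes. Tests were limma's moderated test across all genes with Benjamini-Hochberg adjustment, called at an adjusted p under 0.05, and differences are given ± SE.

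**Figure D2:**
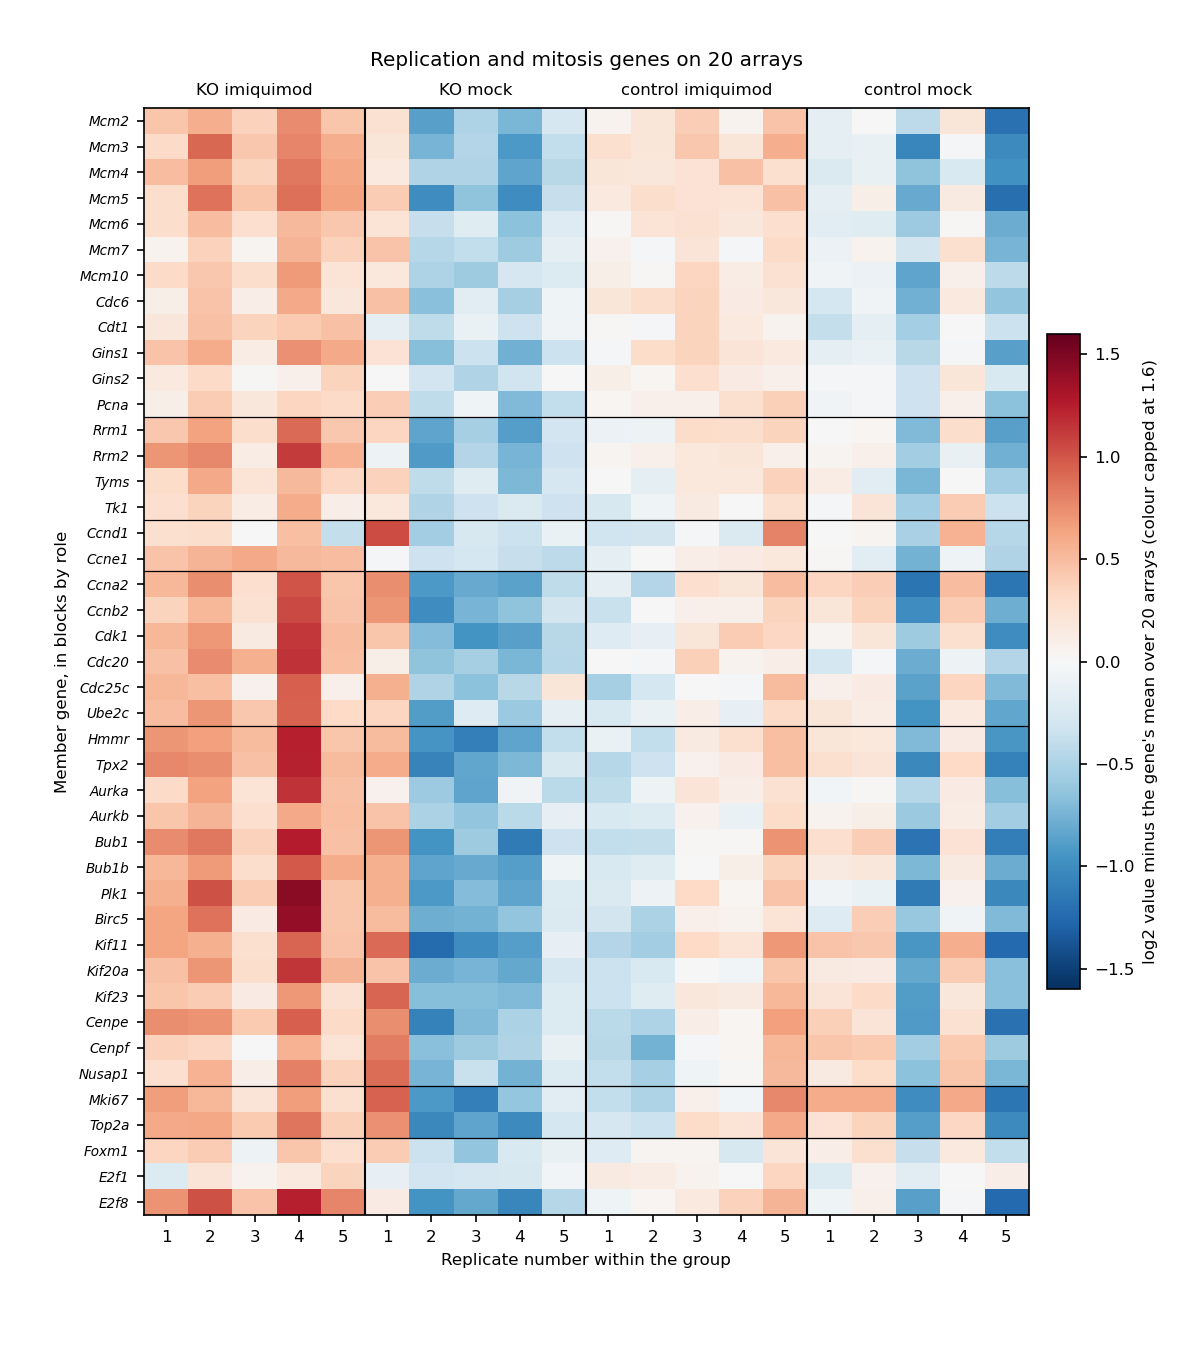
Log2 value of each of the 43 members (rows, in blocks by role) on each of the 20 arrays (columns, replicates 1 to 5 of each group), as the difference from that gene's mean over all arrays. The KO imiquimod block is red nearly throughout, the KO mock block is mostly blue except for replicate 1, and in control mock skin replicates 3 and 5 are blue.

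Replication licensing and fork genes rose in KO skin for 10 of 12 members, with a median difference of 0.65. The MCM genes encode the replicative helicase. Mcm4 read 7.45, 7.63, 7.31, 7.80 and 7.57 in KO imiquimod skin, against 7.11, 6.47, 6.48, 6.11 and 6.51 in KO mock skin. All KO imiquimod arrays were above all KO mock arrays, with a difference of 1.02 ± 0.163 (2.02-fold, adjusted p = 0.000148). Cdt1, which loads the helicase and whose E2F word lies just after the start, read 6.10, 6.39, 6.28, 6.34 and 6.39 in KO imiquimod skin, against 5.76, 5.51, 5.81, 5.59 and 5.86 in KO mock skin. The groups did not overlap, and the difference was 0.59 ± 0.104 (adjusted p = 0.000348). Mcm5 had the largest difference of this role at 1.14 ± 0.253 (adjusted p = 0.0027), with KO mock replicate 1 inside the imiquimod range. Mcm2, Mcm3, Mcm6, Mcm10, the helicase cofactors Gins1 and Gins2, and the sliding clamp Pcna also passed, at 0.41 (Gins2) to 1.07 (Mcm3). The helicase subunit Mcm7 stood at 0.50 ± 0.182 (adjusted p = 0.0596) and the loading factor Cdc6 at 0.48 ± 0.187 (adjusted p = 0.0774), neither past the threshold. Pcna lost its call in 9 of 31 alternative settings. It was lost without KO imiquimod replicate 2, 4 or 5 and without KO mock replicate 2, 4 or 5 (highest adjusted p = 0.105, without KO mock replicate 4). The call was also lost with the groups of the contrast alone, with the replicate block and with quantile normalization.

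All 4 genes of nucleotide supply rose in KO skin, with a median difference of 0.81. Rrm1 and Rrm2 encode the subunits of ribonucleotide reductase, which makes deoxynucleotides. Rrm2 read 6.55, 6.61, 5.96, 6.96 and 6.40 in KO imiquimod skin, against 5.76, 4.94, 5.37, 5.10 and 5.51 in KO mock skin. Its groups did not overlap, and the difference was 1.16 ± 0.182 (2.24-fold, adjusted p = 0.000114). This is the brighter of 2 probe sets, and Rrm2 was the only member with more than 1. Over the 31 alternative settings, among them the mean of probe sets, its difference ran from 0.709 to 1.34 and the call was kept. The dimmer probe set was not read on its own. Rrm1 read 8.31, 8.52, 8.15, 8.78 and 8.31 in KO imiquimod skin, against 8.22, 7.03, 7.34, 6.99 and 7.57 in KO mock skin, a difference of 0.98 ± 0.227 (adjusted p = 0.00375). KO mock replicate 1 lay within the KO imiquimod range of Rrm1, and the other 4 KO mock arrays lay below it. Tyms, the thymidylate synthase, read 7.15, 7.46, 7.08, 7.37 and 7.19 in KO imiquimod skin, against 7.23, 6.45, 6.66, 6.14 and 6.59 in KO mock skin. Here too KO mock replicate 1 reached into the imiquimod range, and the difference was 0.64 ± 0.175 (adjusted p = 0.0126). The thymidine kinase Tk1 rose by 0.53 ± 0.159 (adjusted p = 0.0219). Tk1 lost its call without KO imiquimod replicate 4, without KO mock replicate 2 and without the 4 arrays farthest in hair genes (highest adjusted p = 0.0662).

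Of the measured cyclins of G1 and S phase 1 of 2 rose in KO skin. Ccne1, cyclin E1, drives entry into S phase and read 6.41, 6.49, 6.56, 6.47 and 6.44 in KO imiquimod skin, against 5.92, 5.62, 5.67, 5.58 and 5.53 in KO mock skin. The KO imiquimod values lay close together (SD 0.057) and above all KO mock values, with a difference of 0.81 ± 0.119 (1.75-fold, adjusted p = 5.47e-05). Ccnd1, cyclin D1, couples growth signals to the cycle and read 8.06, 8.08, 7.80, 8.28 and 7.42 in KO imiquimod skin, against 8.84, 7.25, 7.55, 7.46 and 7.70 in KO mock skin. The highest of the 10 arrays was KO mock replicate 1, the groups overlapped, and the difference of 0.17 ± 0.274 did not pass (adjusted p = 0.755).

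Mitotic cyclins, Cdk1 and their regulators rose in KO skin for 5 of 6 members, with a median difference of 0.98. Cdc20 activates the ubiquitin ligase that ends mitosis, and read 7.48, 7.77, 7.59, 8.17 and 7.50 in KO imiquimod skin, against 7.11, 6.37, 6.48, 6.28 and 6.56 in KO mock skin. Groups did not overlap (1.14 ± 0.165, 2.21-fold, adjusted p = 4.67e-05). Cdk1, the kinase of mitotic entry, read 7.42, 7.59, 7.03, 8.02 and 7.38 in KO imiquimod skin, against 7.34, 6.20, 5.93, 6.02 and 6.45 in KO mock skin. KO mock replicate 1 lay within the KO imiquimod range and the other 4 lay below it, and the difference was 1.10 ± 0.261 (adjusted p = 0.00463). Its cyclins Ccna2 (1.04 ± 0.345, adjusted p = 0.0359) and Ccnb2 (0.92 ± 0.295, adjusted p = 0.0304) and the ubiquitin-conjugating enzyme Ube2c (0.88 ± 0.236, adjusted p = 0.0105) also passed. Cdc25c, the phosphatase that activates Cdk1, stood at 0.59 ± 0.265 (adjusted p = 0.132). Ccna2 lost its call in 9 of 31 settings, among them without KO imiquimod replicate 1, 2, 4 or 5 and without KO mock replicate 2, 3, 4 or 5. Ccnb2 lost it in 6, among them without KO imiquimod replicate 2 or 4 and without KO mock replicate 2, 3 or 4. The highest adjusted p, without KO mock replicate 2, was 0.0936 for Ccna2 and 0.0921 for Ccnb2.

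Spindle, kinetochore and cytokinesis genes had the highest median difference of the roles with more than 2 members, at 1.03, and 10 of 14 rose. Hmmr, a spindle protein that also binds hyaluronan, read 6.15, 6.09, 5.94, 6.68 and 5.88 in KO imiquimod skin, against 5.95, 4.49, 4.34, 4.59 and 5.04 in KO mock skin. Its difference was the largest of the role at 1.27 ± 0.278 (2.40-fold, adjusted p = 0.00255), and KO mock replicate 1 overlapped the KO imiquimod range. Aurka, the centrosomal kinase, read 6.46, 6.79, 6.37, 7.30 and 6.62 in KO imiquimod skin, against 6.22, 5.57, 5.31, 6.09 and 5.72 in KO mock skin. The groups did not overlap, and the difference was 0.93 ± 0.199 (adjusted p = 0.00214). Birc5, survivin, a subunit of the chromosomal passenger complex, read 5.59, 5.83, 5.09, 6.37 and 5.41 in KO imiquimod skin, against 5.47, 4.18, 4.20, 4.33 and 4.73 in KO mock skin. KO mock replicate 1 lay inside the imiquimod range, and the difference was 1.08 ± 0.26 (adjusted p = 0.00518). Plk1, the polo-like kinase of mitotic entry and cytokinesis, read 7.18, 7.63, 7.02, 8.06 and 7.06 in KO imiquimod skin, against 7.19, 5.70, 5.92, 5.77 and 6.40 in KO mock skin. It overlapped in the same way, with a difference of 1.19 ± 0.287 (adjusted p = 0.00502). Also higher were the spindle activator Tpx2 (1.20), the kinase Aurkb (0.72), the checkpoint kinases Bub1 (1.20) and Bub1b (1.02), and the kinesins Kif20a (1.06) and Cenpe (0.98). The kinesins Kif11 (1.04 ± 0.39, adjusted p = 0.0659) and Kif23 (0.66 ± 0.283, adjusted p = 0.112), the spindle protein Nusap1 (0.66 ± 0.287, adjusted p = 0.118) and the kinetochore protein Cenpf (0.50 ± 0.279, adjusted p = 0.24) did not pass. Bub1 lost its call without KO imiquimod replicate 4 and without KO mock replicate 2 or 4 (highest adjusted p = 0.0539). Cenpe lost it in 8 settings, among them without KO imiquimod replicate 1, 2 or 4 and without KO mock replicate 2, 3, 4 or 5 (highest adjusted p = 0.109).

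Top2a, the topoisomerase that untangles sister chromatids, read 8.18, 8.19, 7.99, 8.42 and 7.95 in KO imiquimod skin, against 8.30, 6.54, 6.73, 6.55 and 7.29 in KO mock skin. KO mock replicate 1 was among the highest of the 10 arrays, the other 4 lay below every KO imiquimod array, and the difference of 1.06 ± 0.317 passed (adjusted p = 0.0205). That call was lost without KO mock replicate 2 (adjusted p = 0.0627), KO mock replicate 4 or KO imiquimod replicate 4. Mki67, the antigen Ki-67 used to stain dividing cells, read 9.22, 9.08, 8.76, 9.22 and 8.81 in KO imiquimod skin, against 9.49, 7.63, 7.45, 7.93 and 8.37 in KO mock skin. The highest of these 10 values was again KO mock replicate 1, and the difference of 0.84 ± 0.383 did not pass (adjusted p = 0.134).

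Among the transcription factors, E2f8 showed the largest difference of all members. E2f8 encodes an atypical E2F that represses E2F targets late in S phase. It read 6.63, 6.93, 6.36, 7.15 and 6.69 in KO imiquimod skin, against 6.04, 4.95, 5.09, 4.87 and 5.45 in KO mock skin. The groups did not overlap (1.47 ± 0.248, 2.77-fold, adjusted p = 0.000234). E2f1, an activating E2F, read 5.53, 5.95, 5.81, 5.91 and 6.11 in KO imiquimod skin, against 5.62, 5.44, 5.48, 5.49 and 5.71 in KO mock skin. These groups overlapped, and the small difference of 0.31 ± 0.101 passed (adjusted p = 0.0305) but lost its call in 8 of 31 settings, among them without KO imiquimod replicate 2, 4 or 5 and without KO mock replicate 2, 3 or 4 (highest adjusted p = 0.0934). Foxm1, the activator of mitotic genes, stood at 0.46 ± 0.167 (adjusted p = 0.056).

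**Figure D3:**
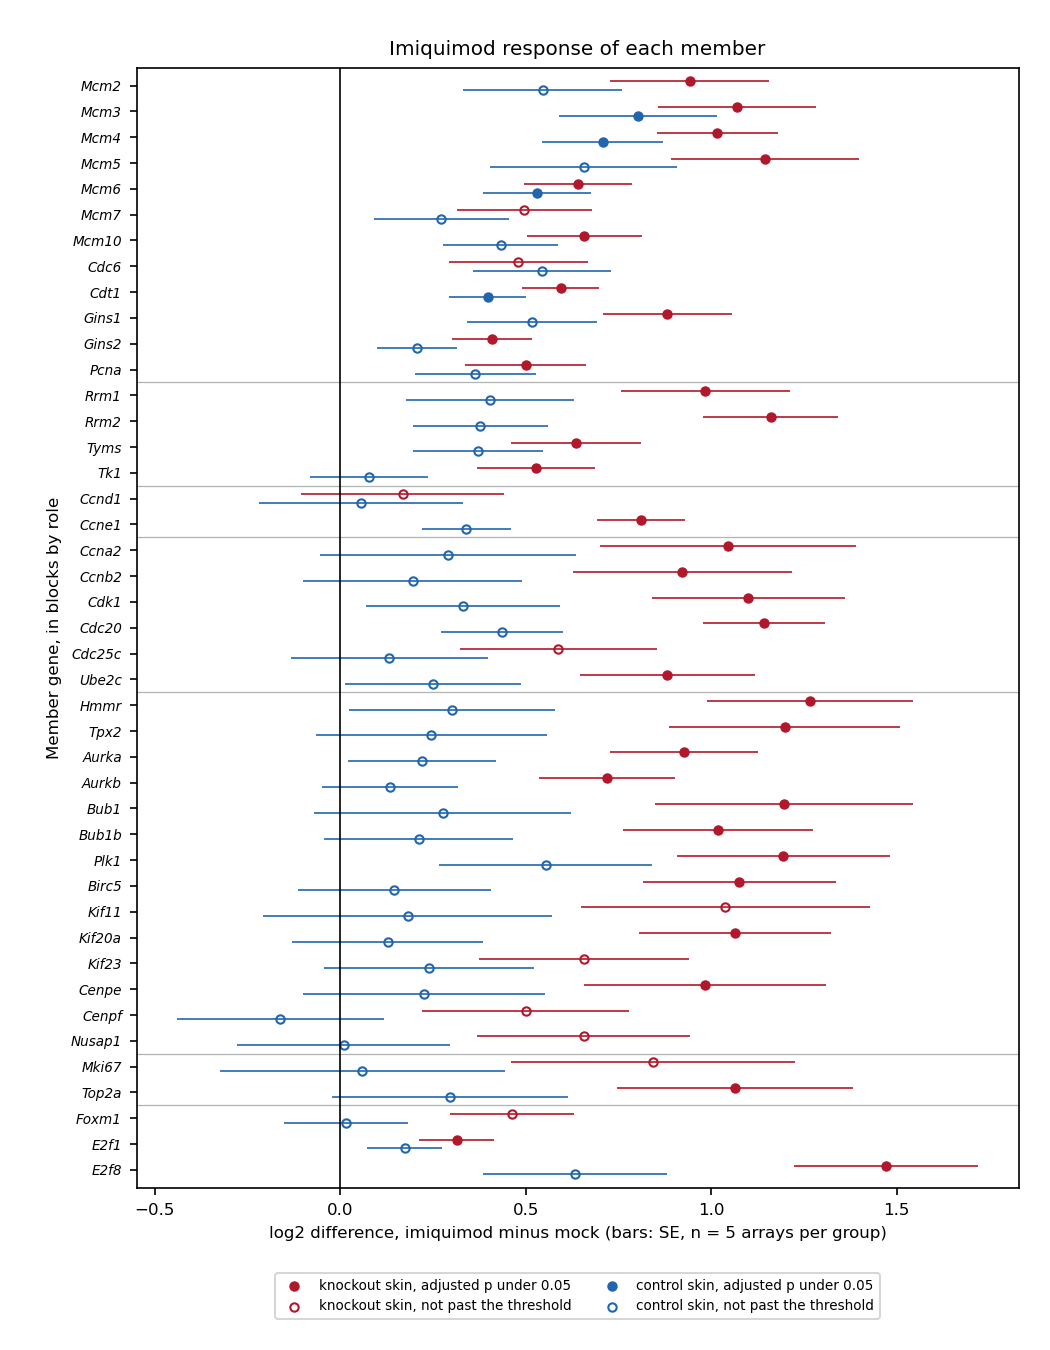
Log2 difference of imiquimod minus mock for each of the 43 members (rows, in blocks by role) in KO skin (red) and control skin (blue), with bars of 1 SE and filled points for an adjusted p under 0.05. Red points lie right of 0 for all 43 members, from 0.17 to 1.47, while the 4 filled blue points are Mcm3, Mcm4, Mcm6 and Cdt1.

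The count in KO skin depended on single arrays. Without KO mock replicate 1, 42 of the 43 members passed, and 25 passed without KO mock replicate 2 or without KO imiquimod replicate 4. KO mock replicate 1 was the highest array of its group for 41 of 43 members and KO imiquimod replicate 4 for 35. KO mock replicate 1 exceeded the lowest KO imiquimod array for 31 of 43 members, and the other KO mock arrays did so for 0 to 3. The mean level of all members was 6.99, 7.17, 6.82, 7.39 and 6.97 in KO imiquimod skin, against 6.99, 5.86, 6.0, 5.92 and 6.32 in KO mock skin. Hair shaft and follicle genes, 23 measured, had a mean level of 9.10, 5.92, 5.76, 7.40 and 5.63 on the same KO imiquimod arrays, against 9.85, 7.85, 6.07, 9.67 and 10.09 on the KO mock arrays. Their median difference was -2.03, and 0 of 23 passed limma's test. At an unadjusted p under 0.05 there were 9 of the 23, where 6925 of all 22180 genes were. None of the hair genes was at 0 on any array. With the hair mean as a covariate 41 members passed as higher, and 29 passed without the array of each group farthest in hair genes (KO imiquimod replicate 1, KO mock replicate 3, control imiquimod replicate 5 and control mock replicate 5).

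Markers of other cells were read in KO skin, where imiquimod raised 11.1% of all genes and lowered 9.71%. Neutrophil markers passed as higher for 6 of 10, with a mean level of 5.72 to 7.10 in KO imiquimod skin, against 4.19 to 4.59 in KO mock skin. One of their defining genes, Ly6g, read 3.56 ± 0.647 in KO imiquimod skin and 3.15 ± 0.276 in KO mock skin (SD, n = 5 each). Of 9 basal keratinocyte genes 4 passed as higher and 2 as lower. Of 8 T cell genes 1 passed as higher, near the share of all genes, and 2 as lower. Suprabasal and stressed keratinocyte genes passed as higher for 5 of 8 and monocyte and macrophage genes for 3 of 9. Passing as lower were 3 of 7 fibroblast genes, 4 of 6 adipocyte genes and 5 of 6 skeletal muscle genes. Detection of these marker genes was not assessed either. The part of these cells in the members' levels was not tested.

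**Figure D4:**
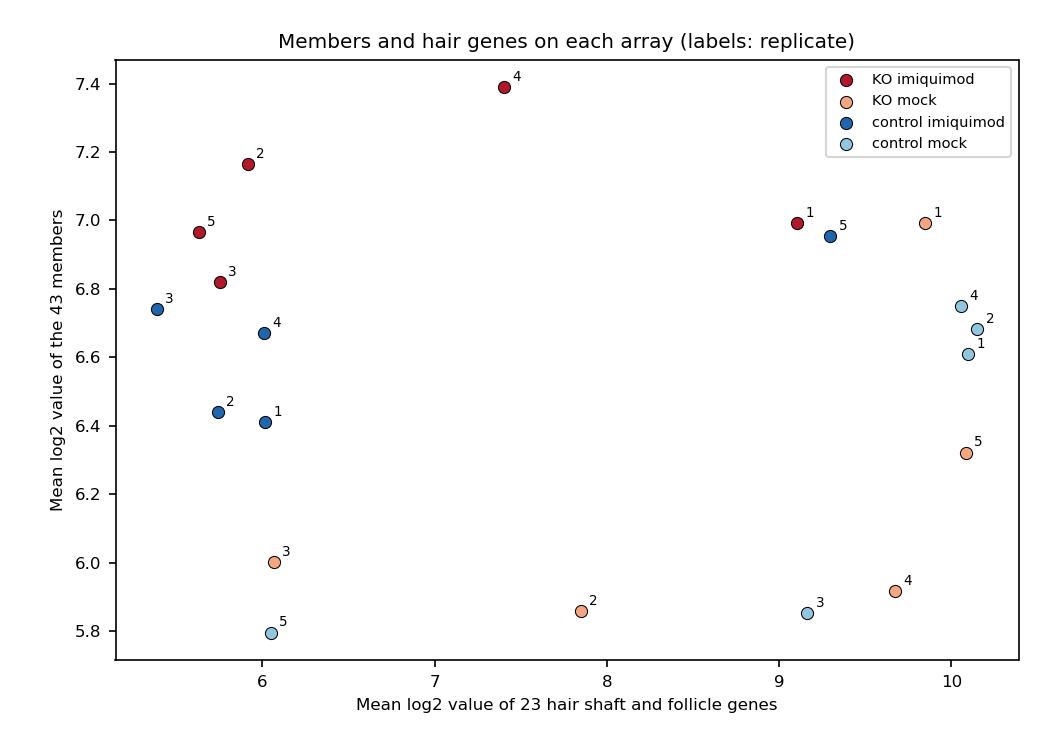
Mean log2 value of the 43 members (vertical axis) against the mean log2 value of 23 hair shaft and follicle genes (horizontal axis) on each of the 20 arrays, labelled by replicate. KO imiquimod replicates 2, 3 and 5 lie at 5.63 to 5.92 in hair genes and 6.82 to 7.17 in members, while KO mock replicate 3 and control mock replicate 5, also near 6 in hair genes, lie at 6.0 and 5.80 in members. Control imiquimod replicates 1 to 4, at 5.39 to 6.02 in hair genes, lie at 6.41 to 6.74. Between 9.10 and 10.15 in hair genes, KO imiquimod replicate 1 lies at 6.99 in members and control imiquimod replicate 5 at 6.95. In that range KO mock replicates 1, 4 and 5 lie at 6.99, 5.92 and 6.32, and control mock replicates 1 to 4 at 5.85 to 6.75.

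In control skin imiquimod raised 4 of 43 members (9.3%) and lowered 0, where 6.47% of all genes passed as higher and 4.37% as lower, so the share was near the background. The 4 were Mcm3, Mcm4, Mcm6 and Cdt1, all of the replication role. The median difference between control imiquimod and control mock skin was 0.28, against -0.004 over all genes, and 42 of 43 were positive, Cenpf standing at -0.16. Some of these signs turned in other settings: 9 of the 43 estimates changed sign without control mock replicate 3, 6 without control mock replicate 5, 5 without control imiquimod replicate 5, 14 with array weights and 18 without the 4 arrays farthest in hair genes. At an unadjusted p under 0.05, 14 members were higher (12.3% of all genes), 10 of them of the 12 replication genes and 0 of the 14 spindle genes. For 3 members, Mcm3, Mcm4 and Mcm5, each control imiquimod array lay above each control mock array, which held for 5.6% of all genes.

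Mcm4 read 7.15, 7.14, 7.19, 7.43 and 7.21 in control imiquimod skin, against 6.73, 6.84, 6.31, 6.71 and 5.99 in control mock skin. The groups did not overlap, and the difference of 0.71 ± 0.163 (1.63-fold, adjusted p = 0.00677) held in all 31 alternative settings. Mcm3 read 7.07, 7.01, 7.24, 7.01 and 7.40 in control imiquimod skin, against 6.66, 6.69, 5.77, 6.80 and 5.80 in control mock skin, again without overlap (0.80 ± 0.213, adjusted p = 0.0179). Cdt1 read 5.94, 5.89, 6.28, 6.08 and 5.98 in control imiquimod skin, against 5.54, 5.77, 5.37, 5.92 and 5.58 in control mock skin, with control mock replicate 4 inside the imiquimod range (0.40 ± 0.104, adjusted p = 0.0161). Mcm6 stood at 0.53 ± 0.146 (adjusted p = 0.0219). Mcm4 alone of these 4 passed without control mock replicate 3, Mcm3 and Mcm4 passed without control imiquimod replicate 3, and Mcm6 lost its call without control mock replicate 5.

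The median difference of the replication role in control skin was 0.52, that of nucleotide supply 0.38, that of the mitotic cyclin role 0.27 and that of the spindle role 0.22. Rrm2 read 5.88, 5.92, 6.01, 6.04 and 5.92 in control imiquimod skin, against 5.88, 5.92, 5.29, 5.72 and 5.07 in control mock skin, a difference of 0.38 ± 0.182 that did not pass (adjusted p = 0.212). Tyms read 6.85, 6.71, 7.02, 7.02 and 7.23 in control imiquimod skin, against 6.98, 6.69, 6.13, 6.86 and 6.31 in control mock skin (0.37 ± 0.175, adjusted p = 0.199). Control mock values of both genes were low in replicates 3 and 5. Ccne1 read 5.80, 5.94, 6.05, 6.08 and 6.12 in control imiquimod skin, against 5.97, 5.78, 5.19, 5.88 and 5.47 in control mock skin (0.34 ± 0.119, adjusted p = 0.0736). Ccnd1 read 7.48, 7.51, 7.77, 7.57 and 8.60 in control imiquimod skin, against 7.81, 7.85, 7.28, 8.36 and 7.35 in control mock skin, and its difference was 0.056 ± 0.274 (adjusted p = 0.944). Control imiquimod replicate 5 was the highest array for Ccnd1 and for Ccne1 in its group.

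No gene of the mitotic roles passed in control skin, although the spindle genes Hmmr and Plk1 passed with the hair mean as a covariate. Cdc20 read 7.02, 6.98, 7.40, 7.07 and 7.12 in control imiquimod skin, against 6.73, 6.98, 6.22, 6.93 and 6.55 in control mock skin (0.44 ± 0.165, adjusted p = 0.1). Plk1 read 6.39, 6.53, 6.94, 6.65 and 7.07 in control imiquimod skin, against 6.56, 6.51, 5.48, 6.68 and 5.58 in control mock skin (0.55 ± 0.287, adjusted p = 0.255). Hmmr read 5.33, 5.04, 5.58, 5.69 and 5.92 in control imiquimod skin, against 5.63, 5.61, 4.73, 5.57 and 4.51 in control mock skin (0.30 ± 0.278, adjusted p = 0.592). Control mock replicates 1, 2 and 4 stood inside the imiquimod range of Hmmr, and replicates 3 and 5 stood below it. Cdk1 read 6.68, 6.76, 7.08, 7.30 and 7.22 in control imiquimod skin, against 6.94, 7.08, 6.32, 7.15 and 5.90 in control mock skin (0.33 ± 0.261, adjusted p = 0.513). Birc5 read 4.67, 4.46, 5.04, 5.02 and 5.18 in control imiquimod skin, against 4.76, 5.36, 4.35, 4.91 and 4.26 in control mock skin (0.15 ± 0.26, adjusted p = 0.819). Top2a read 7.30, 7.23, 7.86, 7.79 and 8.17 in control imiquimod skin, against 7.80, 7.93, 6.69, 7.90 and 6.55 in control mock skin (0.30 ± 0.317, adjusted p = 0.661). The same control mock replicates, 3 and 5, were the lowest of their group for Cdk1, Birc5 and Top2a. Mki67 read 8.15, 8.06, 8.63, 8.51 and 9.32 in control imiquimod skin, against 9.14, 9.14, 7.55, 9.15 and 7.39 in control mock skin, with no difference past the threshold (0.06 ± 0.383, adjusted p = 0.956). E2f8 read 5.84, 5.94, 6.07, 6.28 and 6.45 in control imiquimod skin, against 5.84, 5.99, 5.04, 5.89 and 4.66 in control mock skin (0.63 ± 0.248, adjusted p = 0.114). Over all 43 members the median SD within a group was 0.246 in KO imiquimod skin, 0.479 in KO mock skin, 0.223 in control imiquimod skin and 0.506 in control mock skin.

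Hair genes stood at a mean of 6.02, 5.74, 5.39, 6.01 and 9.30 in control imiquimod skin, against 10.10, 10.15, 9.16, 10.06 and 6.05 in control mock skin. Their median difference was -2.72, with 0 of 23 past limma's threshold. At an unadjusted p under 0.05 there were 22 of the 23, where 5300 of all 22180 genes were. On the same arrays the members' mean was 6.41, 6.44, 6.74, 6.67 and 6.95 in control imiquimod skin, against 6.61, 6.68, 5.85, 6.75 and 5.80 in control mock skin. Control imiquimod replicate 5, the array high in hair genes, was the highest of its group for 34 of 43 members. On that array S100a8, a gene of the neutrophil list, read 6.52, against 8.43 to 10.08 on the other 4 of its group. Control mock replicate 5, the array low in hair genes, was the lowest of its group for 23 members, and replicate 3 for 19. With the hair mean as a covariate 12 members passed in control skin and the median difference was 0.63. Without the array of each group farthest in hair genes 2 passed, the median difference was 0.045, and 18 of 43 estimates changed sign. The part of growing follicles in these values was not tested beyond these settings. In control skin 6.47% of all genes passed as higher and 4.37% as lower. Neutrophil markers passed as higher for 3 of 10. Their mean level was 4.70 to 5.59 in control imiquimod skin, against 4.11 to 4.29 in control mock skin. Their median difference was 0.22, and 6 of 10 differences were positive. S100a8 averaged 8.63 in control imiquimod skin and 4.69 in control mock skin, while Ly6g averaged 3.09 and 3.33. Basal keratinocyte genes passed as higher for 3 of 9 and as lower for 1, suprabasal and stressed keratinocyte genes as higher for 6 of 8, and T cell genes as higher for 1 of 8. Monocyte and macrophage genes passed as higher for 3 of 9, fibroblast genes as lower for 4 of 7, adipocyte genes as lower for 1 of 6 and skeletal muscle genes for 0 of 6. The part of these cells in the control values was not tested.

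**Figure D5:**
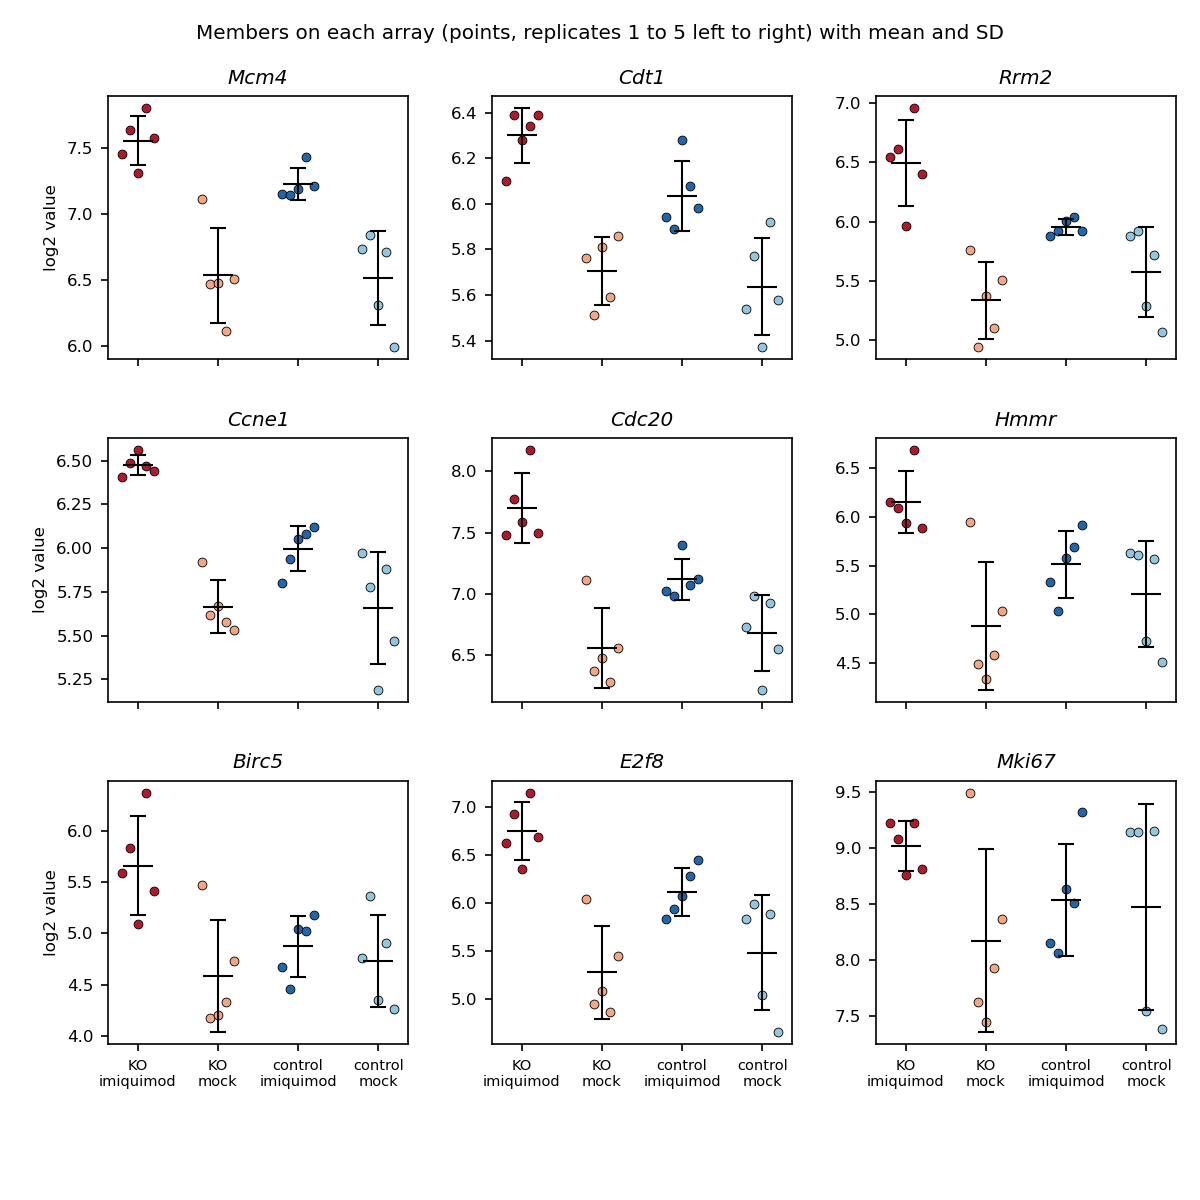
Log2 value of 9 members on each array (points, replicates 1 to 5 from left to right within a group), with the mean and SD of each group as bars. Ccne1 and Cdc20 in KO imiquimod skin lie above every array of the other 3 groups, and Mki67 in KO mock skin spans 7.45 to 9.49.

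Between the genotypes under imiquimod, 0 of 43 members passed the test, where 0.374% of all genes passed as higher. The median difference of KO imiquimod over control imiquimod skin was 0.48, against 0.006 over all genes, and 42 of 43 were positive (E2f1 at -0.018). At an unadjusted p under 0.05, 15 members were higher, which held for 5.18% of all genes, and 9 of the 15 were spindle genes. For Ccne1, Cdc20 and Ube2c, 3 members, each KO imiquimod array lay above each control imiquimod array, which held for 1.3% of all genes. Ccne1, at 6.41 to 6.56 in KO imiquimod skin and 5.80 to 6.12 in control imiquimod skin, differed by 0.48 ± 0.119 (1.39-fold, adjusted p = 0.0825). It passed with array weights (adjusted p = 0.0228), with the hair covariate (adjusted p = 0.0443) and without control mock replicate 3 (adjusted p = 0.0284), and its adjusted p ran up to 0.229, without control imiquimod replicate 1. Cdc20 differed by 0.58 ± 0.165 (adjusted p = 0.147). Birc5 had the largest difference at 0.78 ± 0.26 (adjusted p = 0.248), with values of 5.09 to 6.37 in KO imiquimod skin and 4.46 to 5.18 in control imiquimod skin. By role, the median difference was 0.62 for spindle genes, 0.51 for the mitotic cyclin role, 0.34 for nucleotide supply and 0.24 for the replication role. Of 10 neutrophil markers, 2 passed as higher in the same comparison, with a mean level of 5.72 to 7.10 in KO imiquimod skin and 4.70 to 5.59 in control imiquimod skin. Skeletal muscle genes had a mean level of 8.33 to 9.33 in KO imiquimod skin and 9.32 to 10.22 in control imiquimod skin. Of these 6 genes 1 passed as lower, where 0.171% of all genes did. The part of either in the members' values was not tested.

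In mock skin the members showed no called difference between the genotypes. No member passed as higher or lower between KO mock and control mock skin, 0 of 43 had an unadjusted p under 0.05, and 0.00902% of all genes passed as higher (1.79% at an unadjusted p under 0.05). The median difference was -0.13, against 0.006 over all genes, and 10 of 43 differences were positive.

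The estimated response to imiquimod was larger in KO than in control skin for 42 of 43 members, with a median difference of responses of 0.58, but no member passed the test of that difference, where 0.018% of all genes passed as higher. Cdc6 was the exception in sign, at -0.064. The difference of responses also takes in the mock groups. There the median of KO over control skin was -0.13, and 10 of 43 members were positive. At an unadjusted p under 0.05, 11 members had the larger response in KO skin, against 2.95% of all genes, among them 7 of 14 spindle genes and 0 of 12 replication genes. Hmmr had the largest difference of responses at 0.96 ± 0.393 (adjusted p = 0.7). Rrm2, read from the brighter of its 2 probe sets, stood at 0.78 ± 0.257 (adjusted p = 0.588). By role the medians were 0.78 for spindle genes, 0.72 for the mitotic cyclin role, 0.52 for nucleotide supply and 0.23 for the replication role. The KO response, the genotype comparison under imiquimod and this difference all use the KO imiquimod arrays, so their values are not independent.

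Other genes of the same pathways, listed from background knowledge, were read in the same fit. Of 31 other replication genes, 25 rose in KO skin and 0 fell, against 11.1% and 9.71% of all genes, with a median difference of 0.58. Orc1, a subunit of the origin recognition complex, stood at 0.62 ± 0.09 (adjusted p = 4.68e-05) and the chromatin assembly factor gene Chaf1b at 0.83 ± 0.157 (adjusted p = 0.000758). In control skin 5 of the 31 rose, namely Rfc3, Cdc7, Pola1, Fen1 and Dnmt1, at 0.37 to 0.51, where 6.47% of all genes rose. Of 50 other mitosis genes, 38 rose in KO skin, where 11.1% of all genes rose, and 0 passed in control skin. The passenger complex gene Cdca8 stood at 0.79 ± 0.158 (adjusted p = 0.00114) and the chromokinesin Kif4 at 1.01 ± 0.208 (adjusted p = 0.00146) in KO skin. Under imiquimod 0 members of either list passed between the genotypes, where 0.374% of all genes passed as higher and 0.171% as lower.

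Of the inhibitors of the cycle, 4 of 13 fell in KO skin, where 9.71% of all genes did, and 1 of 13 rose, where 11.1% did. Cdkn1b, the inhibitor p27 of cyclin-dependent kinases, read 7.33, 7.09, 7.01, 7.34 and 7.30 in KO imiquimod skin, against 8.14, 8.07, 7.80, 8.11 and 8.13 in KO mock skin. It read 7.42, 7.52, 7.23, 7.62 and 7.74 in control imiquimod skin, against 8.04, 8.09, 8.35, 8.10 and 7.94 in control mock skin. Neither genotype showed overlap, with a difference of -0.84 ± 0.103 in KO skin (adjusted p = 7.49e-06) and -0.60 ± 0.103 in control skin (adjusted p = 0.000532). The pocket protein genes Rb1 (-0.51) and Rbl2 (-0.46) and the kinase inhibitor Cdkn2b (-0.26) also fell in KO skin, and Rb1 fell in control skin (-0.42, adjusted p = 0.0306), where 4.37% of all genes fell. The pocket protein gene Rbl1 rose in KO skin (0.66 ± 0.174, adjusted p = 0.00903).

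Of 17 other transcription factors and regulators of G1, 5 rose in KO skin, namely E2f4, Cdk6, Tfdp1, E2f7 and Myc, where 11.1% of all genes rose, and 1, Ccnd2, fell, where 9.71% did. The same 5 genes rose in control skin, where 6.47% of all genes rose. E2f4, an E2F that binds pocket proteins, stood at 0.78 ± 0.111 in KO skin (adjusted p = 4.07e-05) and 0.46 ± 0.111 in control skin (adjusted p = 0.00896). Cdk6, a G1 kinase, stood at 0.77 ± 0.114 in KO skin (adjusted p = 5.51e-05) and 0.59 ± 0.114 in control skin (adjusted p = 0.00141). Cyclin D2, Ccnd2, stood at -0.80 ± 0.189 in KO skin (adjusted p = 0.00436) and -0.58 ± 0.189 in control skin (adjusted p = 0.0535). No inhibitor, transcription factor or regulator of these 2 lists passed between the genotypes under imiquimod. Of all genes 0.374% passed as higher and 0.171% as lower there.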

How the data were processed

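Total RNA of each skin was labelled from 200 ng for Affymetrix whole-transcript arrays, per the labels' protocols. Values were read from the deposited table, which gives 41345 probe sets on each of 20 arrays. They were taken as log2 because they run from 1.41 to 13.33. The sources used here do not state how the authors summarised and normalized these log2 values, or their base. Detection calls were not used, so levels relative to background are unknown, and 5 arrays per group limit the precision. Probe sets were named through the platform annotation: 23521 had 1 symbol, 1814 several and 16010 none. The brightest single-symbol probe set over the 20 arrays stood for a gene.

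Differences were fitted with limma (version 3.58.1, under R 4.3.3; lmFit, then eBayes) with 1 mean per group over all 20 arrays, two-sided, with Benjamini-Hochberg adjustment over 22180 genes and a threshold of 0.05 (16 residual degrees of freedom). Alternatives were the groups of a contrast alone, the replicate block, other variance priors, array weights, quantile normalization or median centring, the mean of probe sets, the 30% dimmest genes left out, the hair covariate, and arrays left out. The genes of interest, their roles, the pathway and marker lists, the alternatives and the naming rule were chosen with earlier results of these data known. The rule took, per role, the 2 smallest p in KO skin and the smallest in the genotype and control comparisons, with Mki67 and Ccnd1 added. Genes named among the others of a role account for its members. Replicate numbers were not taken to pair samples in the main fit. Residuals of same-numbered arrays correlated with a median of -0.068, and those of other numbers with -0.04. Same-numbered pairs ran from -0.709 to 0.516, with 14 of 30 over 0.1, so these medians do not settle whether equal numbers share handling. No pair of arrays was identical. Promoters came from a RefSeq table of GRCm38.p6.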

Additional observations from a re-analysis of the deposited data

Results flagged for a closer look

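In 92 groups of 5 arrays examined, 6 held 1 array far from the other 4, where chance gives about 1 in 20. Mcm4 read 7.43 in control imiquimod replicate 4, against 7.14 to 7.21 on the other arrays of that group. Ccnd1 read 8.84 in KO mock replicate 1, against 7.25 to 7.70, and 8.60 in control imiquimod replicate 5, against 7.48 to 7.77. The mean of the hair genes was 9.30 in control imiquimod replicate 5, against 5.39 to 6.02, and 6.05 in control mock replicate 5, against 9.16 to 10.15. The mean of the neutrophil genes was 4.59 in KO mock replicate 5, against 4.19 to 4.22 on the other arrays of that group. The cause of these values was not tested.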

How the results depend on the processing

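All 43 differences in KO skin stayed positive in each of the 31 alternative settings, with 25 to 42 members passing when 1 array was left out and 32 with the replicate block, which left 4 in control skin and 0 in the other comparisons. In control skin 12 members passed with the hair covariate (median difference 0.63) and 2 without the 4 arrays farthest in hair genes, and leaving out 1 array gave 1 to 6, with the low of 1 without control mock replicate 3. Between the genotypes under imiquimod 1 member, Ccne1, passed with array weights and with the hair covariate, and leaving out 1 array gave 0 to 1. Between mock groups and for the difference of responses 0 members passed in each setting run. In control skin 14 of 43 estimates changed sign with array weights and 18 without the hair-far arrays, and leaving out 1 array changed the sign of at most 9. Among the members given array by array, those that changed sign with array weights had an adjusted p of 0.681 for Ccnd1 and 0.573 for Mki67, and with quantile normalization 0.999 for Mki67. Without the hair-far arrays they had 0.661 for Ccnd1, 0.533 for Mki67, 0.949 for Birc5 and 0.968 for Top2a. For E2f1 between the genotypes under imiquimod they were 0.961 with array weights and 0.732 without the hair-far arrays. Leaving out 1 array gave adjusted p of 0.744 to 0.966 for Ccnd1, 0.809 to 0.979 for Mki67 and 0.877 to 0.997 for E2f1 in these comparisons. The cause was not tested.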
